A study of Mus musculus with 31 samples.

Results

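The 12 arrays of whole mouse gonads taken at 16 dpc (days after mating), out of 31 arrays in the series, were used to ask whether the loss of Kit function changed ovaries and testes unequally. The arrays were chosen by their age label alone and form 4 groups of 3: wild-type ovaries, Wv/Wv ovaries, wild-type testes and Wv/Wv testes. Wv/Wv embryos carry on both chromosomes a point mutation of Kit, the receptor for stem cell factor, which weakens its kinase in every cell that expresses it, so Kit-dependent cells other than germ cells carry it too. The other ages of the series are 12 and 14 dpc. For each of 18194 genes the interaction was computed as the change from wild type to Wv/Wv in testes minus the same change in ovaries, on the log2 scale of the deposited signals. A positive value means that the gene was lowered more, or raised less, by Wv/Wv in ovaries than in testes, and a negative value the reverse. Arrays of one group are labelled as biological replicates, with no word on embryos or pooling, so every p-value reflects only how these arrays vary, and that variation may be technical in part.

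Kit signalling keeps migrating primordial germ cells alive, and Wv/Wv gonads are known to hold few germ cells. In the fetal ovary germ cells then enter meiosis, in which cohesin and axis proteins organise each chromosome, the synaptonemal complex joins the homologues, and recombination enzymes exchange DNA between them. In the fetal testis germ cells do not enter meiosis but stop dividing, and they turn on the nuclear part of the piRNA pathway, which directs new DNA methylation to transposons.

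Germ cell markers were first compared with the labels. Dazl, an RNA-binding protein of germ cells of both sexes, read 11.78, 12.80 and 11.46 on the wild-type ovary arrays, 5.05, 4.39 and 5.73 on the Wv/Wv ovary arrays, 8.99, 10.15 and 8.80 on the wild-type testis arrays and 3.72, 3.92 and 3.69 on the Wv/Wv testis arrays. Every wild-type array thus lay above every Wv/Wv array. Ddx4, a germ cell RNA helicase, was also lower in Wv/Wv, by -6.34 ± 0.60 (SE) in ovaries and -4.81 ± 0.60 in testes. In whole gonads fewer germ cells and less RNA per germ cell cannot be told apart. The sex labels fitted the markers: Xist read 11.72 to 12.82 in the 6 ovaries and 5.19 to 8.04 in the 6 testes, Foxl2 of pregranulosa cells read 9.62 to 10.39 against 6.53 to 6.99, and Cyp17a1 of Leydig cells 5.85 to 6.99 against 12.72 to 14.04. Kit itself reads no label here, because the mutation does not remove the transcript, and its interaction of -1.22 ± 0.78 did not pass the test (adjusted p = 1.0).

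The arrays fall into 2 classes by the spread of their signals. Of the 12 arrays 6 have an SD over probe sets of 1.77 to 2.18 and a Gapdh 3′ signal 0.51 to 1.12 above the 5′ signal, and 6 have an SD of 2.35 to 2.39 and a 3′ excess of 1.95 to 2.56. All 3 wild-type ovary arrays are of the narrow class, as are Wv/Wv ovary array 2, wild-type testis array 1 and Wv/Wv testis array 1, so class and group overlap in part. Wild-type testis array 1 stands apart with the SD of 1.77, and wild-type ovary array 2 stands apart in early germ cell genes (Stra8 at 11.90 against 8.91 and 8.76, Dppa3 at 9.57 against 6.12 and 6.28). The interaction was therefore also fitted with class as a term and without each array.

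The interaction was called for 48 genes at a limma adjusted p below 0.05, which is 0.264% of the genes tested, and 900 genes had an unadjusted p below 0.05. It was positive for 43 genes (0.236%) and negative for 5 (0.0275%). All 43 positive genes were called lower in Wv/Wv than in wild-type ovaries, a call made for 0.874% of all genes. In testes 3 of the 43 (Sycp3, Tex12 and Taf7l) were called lower in Wv/Wv, against 0.187% of all genes, and the other 40 were not called. All 5 negative genes were called lower in Wv/Wv testes and none of them in Wv/Wv ovaries, and 4 of the 5, Rrad being the exception, were called higher in wild-type testes than ovaries (2.07% of all genes). No gene of the 48 was called higher in Wv/Wv in either gonad type. The ovary and testis changes come from the arrays that also give the interaction, so these counts describe the calls and add no evidence to them.

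**Figure D1:**
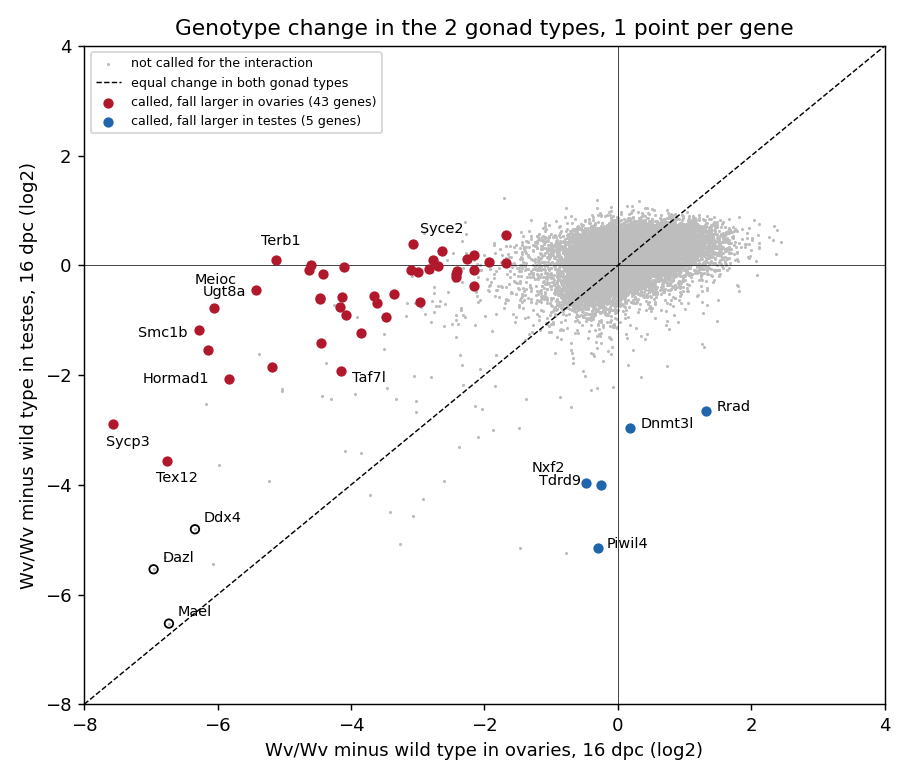
Each point is a gene, placed by its change from wild type to Wv/Wv in ovaries (x, log2) and in testes (y, log2) at 16 dpc, with the dashed line marking equal change. The 43 positive genes lie to the left with testis changes from -3.56 (Tex12) to 0.56, the 5 negative genes lie low with ovary changes from -0.48 (Nxf2) to 1.32 (Rrad), and Mael lies on the line with Dazl and Ddx4 1.42 and 1.53 above it.

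Among the 43 positive genes the median change was -3.65 in ovaries and -0.37 in testes, while over all genes it was 0.03 and 0.12. In wild type 41 of the 43 were called lower in wild-type testes than in wild-type ovaries (1.95% of all genes), the exceptions being Cited1 and Gm715. Sex differences were called for 4.02% of all genes in wild type and 3.64% in Wv/Wv. The 43 genes had a median testis-minus-ovary difference of -2.96 in wild-type gonads, and of 0.13 in Wv/Wv. In Wv/Wv 38 of the 43 had no called sex difference, Taf7l was called lower in testes (1.67% of all genes) and Cenpw, Taf4b, Cited1 and Gm715 were called higher (1.98%). In 42 of the 43 the 3 wild-type ovary arrays lay above the other 9 arrays, a pattern found in 3.07% of all genes, and Cited1 was the exception.

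Genes that build the meiotic chromosome led the positive calls. Of 17 measured genes of the chromosome axis and synapsis 12 were called positive (0.236% of all genes) and none negative (0.0275%). The list median was 3.33 against 0.02 over all genes. This list, like the others, was chosen with earlier results of these data known. Smc1b, a subunit of meiotic cohesin, read 11.83, 11.45 and 11.58 in wild-type ovaries, 5.54, 4.99 and 5.49 in Wv/Wv ovaries, 6.00, 7.10 and 5.87 in testes of wild type and 5.32, 5.01 and 5.09 in those of Wv/Wv. The wild-type ovary arrays stood more than 4 above every other array, and the 3 other groups differed by far less. Its interaction was 5.10 ± 0.45 (SE, adjusted p = 0.000284), from a change of -6.28 in ovaries and -1.18 in testes.

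The proteins that tie telomeres to the nuclear envelope in meiosis behaved alike. Terb1 read 9.97, 9.09 and 9.78 in wild-type ovaries and 4.26 to 4.79 on all other arrays, with no difference between testes of either genotype (change 0.10), and its interaction was 5.23 ± 0.36 (adjusted p = 8.31e-05). Majin read 8.28, 8.27 and 8.28 in wild-type ovaries against 3.88 to 4.48 elsewhere, and its interaction was 4.07 ± 0.28 (adjusted p = 8.31e-05). Terb2, another member of the complex, had a smaller interaction of 2.21 ± 0.39 (adjusted p = 0.0469) and lost the call when any of 10 arrays was left out. Spdya, which activates the kinase Cdk2 at meiotic telomeres, had an interaction of 4.60 ± 0.37 and a testis change of 0.00.

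Synaptonemal complex genes differed in how much of their signal wild-type testes already held. Sycp3, the axis protein, read 11.95, 11.50 and 11.93 in wild-type ovaries and 4.50, 3.80 and 4.35 in those of Wv/Wv. In wild-type testes it read 5.31, 7.70 and 6.60, and in Wv/Wv testes 4.06, 3.45 and 3.43, so the 2 testis groups did not overlap either. It fell in both gonad types, by 7.57 in ovaries and by 2.89 in testes on the log2 scale (adjusted p = 4.85e-06 and 0.0387), and the interaction was 4.68 ± 0.68 (adjusted p = 0.0122, and 0.0578 at most with 1 array left out). Tex12, of the central element, showed the same form: wild-type testis arrays at 6.87, 8.08 and 6.53 against 3.97, 3.23 and 3.60 in Wv/Wv testes, and an ovary change of -6.76 against a testis change of -3.56. Its interaction of 3.20 ± 0.52 (adjusted p = 0.0269) was lost when any of 10 arrays was left out.

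Sycp1, which spans the gap between homologues, read 10.16, 9.34 and 10.23 in wild-type ovaries and 5.09, 5.83 and 4.88 in wild-type testes. In both Wv/Wv groups it read 3.40 to 4.04. Its interaction was 4.61 ± 0.46 (adjusted p = 0.000836). The central element genes Syce1 (3.33 ± 0.51), Syce2 (3.47 ± 0.49) and Syce3 (3.85 ± 0.61) were called too, as were Hormad1 of the unsynapsed axis (3.76 ± 0.59) and the X-linked Tex11 (3.04 ± 0.44). With 1 array left out in turn, Syce2 stayed called in 11 of 12 fits, Tex11 in 7, Syce1 in 5, Syce3 in 3 and Hormad1 in 2. Syce2 kept a higher signal in Wv/Wv than the others, at 8.50 to 9.16 in Wv/Wv ovaries and 9.77 to 9.84 in Wv/Wv testes. Of the list, Sycp2 (2.74, adjusted p = 0.437), Stag3 (2.04, adjusted p = 0.824) and Hormad2 (1.71, adjusted p = 0.0734) were called lower in Wv/Wv ovaries and not for the interaction, and Trip13 and Sycp2l were called for neither.

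**Figure D2:**
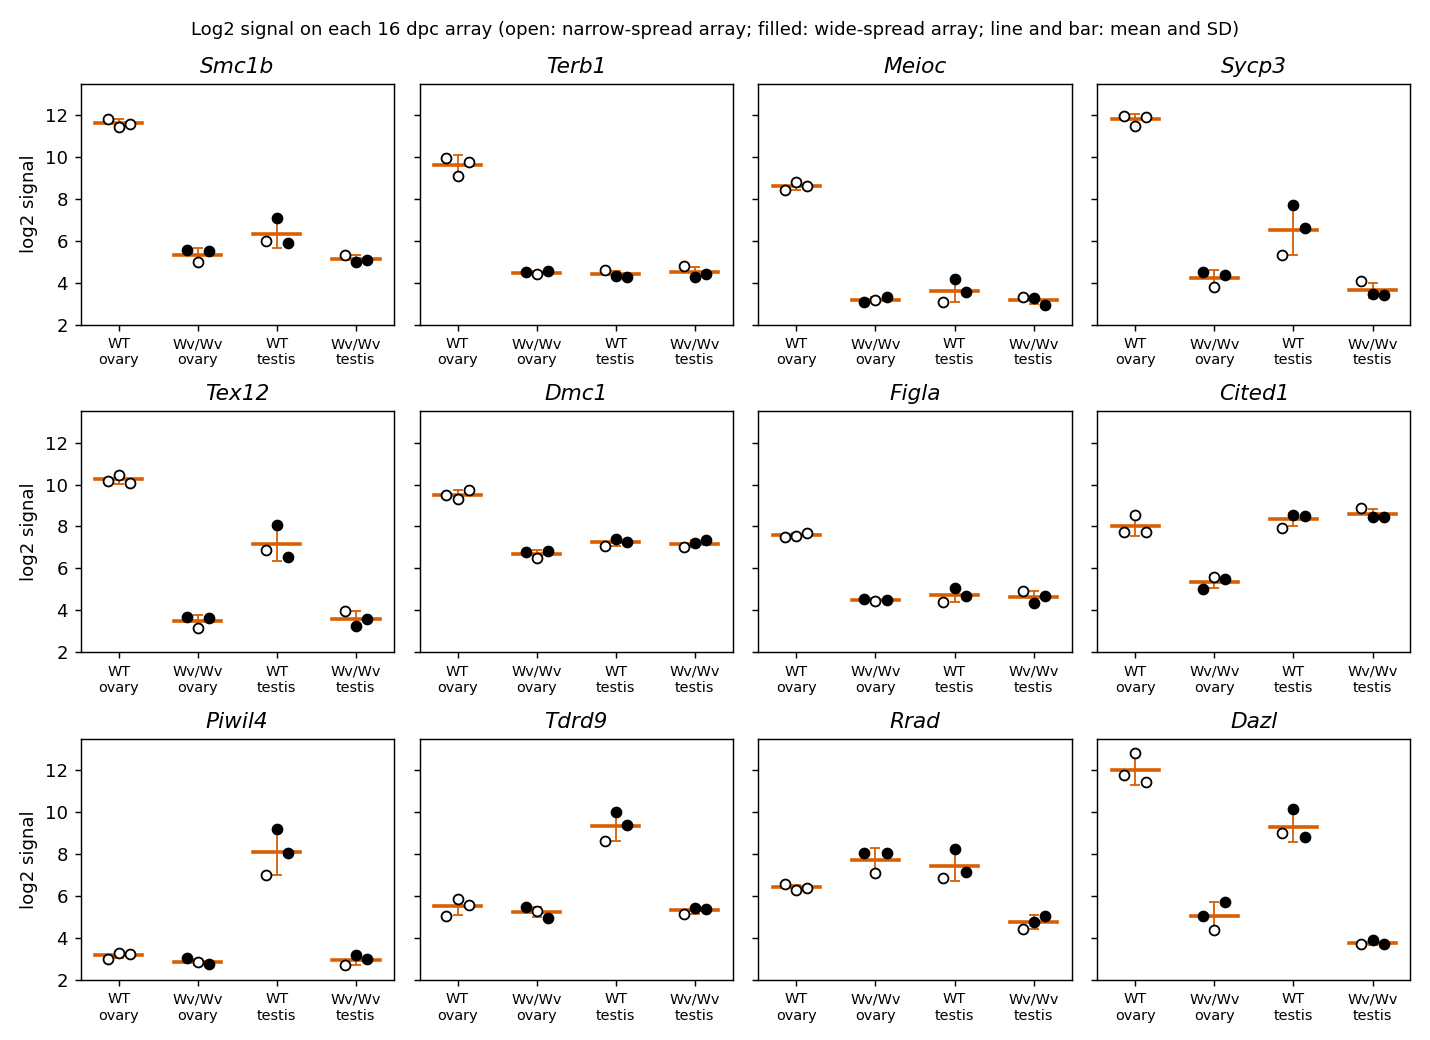
Log2 signal on each of the 12 arrays of 16 dpc for 12 genes, with open points for narrow-spread arrays, filled points for wide-spread arrays and the mean and SD of each group. Meiotic genes stand high in wild-type ovaries alone, Sycp3 and Tex12 are also raised in wild-type testes, Piwil4 and Tdrd9 stand high in wild-type testes alone, and Dazl is high in both wild-type groups.

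Recombination genes followed with smaller numbers of calls: 4 of 15 measured were positive (0.236% of all genes) and none negative (0.0275%), with a list median of 2.01. Meiob, which binds single-stranded DNA at meiotic breaks, read 8.39, 7.05 and 8.24 in wild-type ovaries and 3.03 to 3.42 on the other 9 arrays (interaction 4.56 ± 0.45, adjusted p = 0.000724). M1ap read 9.73, 9.75 and 9.58 against 4.88 to 5.84 (3.86 ± 0.32, adjusted p = 0.00017). In Meiob the wild-type testes lay within the range of the Wv/Wv arrays, while in M1ap wild-type testis arrays 1 and 2 (5.84 and 5.74) lay above all 6 Wv/Wv arrays (4.88 to 5.35). Dmc1, the meiotic recombinase, read 9.50, 9.32 and 9.74 in wild-type ovaries and 6.48 to 7.41 elsewhere, with an interaction of 2.76 ± 0.30 (adjusted p = 0.00178). Mei1, needed for break formation, had 2.26 ± 0.40 (adjusted p = 0.0469). Spo11, which makes the breaks, was called lower in Wv/Wv ovaries by -3.46, with an interaction of 2.47 ± 0.51 that did not pass the test (adjusted p = 0.111). Outside the list, Hsf2bp, which takes part in loading recombinases, was called at 3.18 ± 0.55 (adjusted p = 0.0411, lost when any of 9 arrays was left out).

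Of 7 measured genes of meiotic entry 1 was called positive (0.236% of all genes). Meioc, a partner of the RNA helicase Ythdc2 that sustains early meiosis, read 8.43, 8.82 and 8.63 in wild-type ovaries and 2.95 to 4.19 on the other arrays, with an interaction of 4.99 ± 0.39 (adjusted p = 0.000127). Stra8, a gatekeeper of meiosis induced by retinoic acid, read 8.91, 11.90 and 8.76 in wild-type ovaries and 5.17 to 6.73 elsewhere. All 3 wild-type ovary arrays were therefore above the other 9, yet their spread of 1.77 (SD) left an interaction of 3.53 ± 0.97 that did not pass (adjusted p = 0.455). Without wild-type ovary array 2 it was 2.51 ± 0.53 (adjusted p = 0.174), and in the fit over all 31 arrays it passed (3.53 ± 0.73, adjusted p = 0.0151). Rec8, the meiotic kleisin on this list, did not move with genotype: ovaries of both genotypes read 9.44 to 10.60 and testes 5.24 to 6.37 (interaction -0.65 ± 0.48, adjusted p = 1.0).

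Promoter windows of the called genes were searched for 2 motifs, because members that move together may share sequence. RefSeq windows (GRCm38.p6, 250 bases before to 50 after the start) were found for 36 of the 43 positive genes and 4 of the 5 negative ones. TCCCGC is the core of sites bound by E2F factors including E2F6, and CACGTG is an E-box, bound by MGA with MAX among others. E2F6 and MGA belong to a Polycomb complex that keeps germ cell genes silent in other cells. On either strand TCCCGC was present in 25 of the 43 windows of the positive genes (58.1%), in 29.1% of the windows of all tested genes and in 50.0% of those whose GC content was at least the 61.3% median of the positive genes. These GC-rich windows have a median GC of 67.7%, so they are richer in GC than the positive windows and not matched to them. CACGTG was present in 11 of the 43 windows (25.6%), against 8.74% of the windows of all tested genes and 11.2% of the GC-rich ones. These shares are descriptions of letters in windows, and the motifs do not overlap each other. The windows of 4 of the genes with the largest interactions are shown for their TCCCGC matches, with TCCCGC or its reverse GCGGGA and CACGTG in capitals: Terb1 (chr8:104509838-104510137, minus strand), Smc1b (chr15:85131908-85132207, minus strand), Meioc (chr11:102665335-102665634, plus strand) and Sycp3 (chr10:88459337-88459636, plus strand).
Terb1: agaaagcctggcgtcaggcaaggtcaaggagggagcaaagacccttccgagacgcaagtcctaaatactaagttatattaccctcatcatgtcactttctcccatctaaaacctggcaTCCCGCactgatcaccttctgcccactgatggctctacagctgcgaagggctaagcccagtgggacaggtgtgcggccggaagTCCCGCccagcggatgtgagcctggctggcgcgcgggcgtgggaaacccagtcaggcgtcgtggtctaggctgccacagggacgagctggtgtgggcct
Smc1b: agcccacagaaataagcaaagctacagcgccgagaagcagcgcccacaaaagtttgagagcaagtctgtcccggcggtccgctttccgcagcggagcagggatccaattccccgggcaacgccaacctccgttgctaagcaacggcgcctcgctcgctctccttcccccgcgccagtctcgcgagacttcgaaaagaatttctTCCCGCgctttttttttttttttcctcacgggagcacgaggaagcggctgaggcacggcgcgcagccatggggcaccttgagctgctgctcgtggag
Meioc: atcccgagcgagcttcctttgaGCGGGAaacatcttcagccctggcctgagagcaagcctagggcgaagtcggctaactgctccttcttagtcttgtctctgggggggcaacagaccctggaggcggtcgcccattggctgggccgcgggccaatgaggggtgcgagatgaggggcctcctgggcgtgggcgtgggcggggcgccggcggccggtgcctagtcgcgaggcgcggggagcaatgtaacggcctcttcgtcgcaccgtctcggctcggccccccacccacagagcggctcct
Sycp3: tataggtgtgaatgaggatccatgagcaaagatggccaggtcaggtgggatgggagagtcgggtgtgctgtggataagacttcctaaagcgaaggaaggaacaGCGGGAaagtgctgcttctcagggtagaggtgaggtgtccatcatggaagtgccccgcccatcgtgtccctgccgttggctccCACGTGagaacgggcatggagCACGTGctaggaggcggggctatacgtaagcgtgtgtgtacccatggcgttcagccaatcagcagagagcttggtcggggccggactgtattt
Terb1 holds 2 matches to TCCCGC, and Smc1b, Meioc and Sycp3 hold 1 each. Sycp3 also holds 2 matches to CACGTG.

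Other positive genes are regulators of the oocyte and of transcription. Of 18 measured oocyte genes 2 were called positive (0.236% of all genes). Figla, which prepares the primordial follicle, read 7.51, 7.56 and 7.70 in wild-type ovaries and 4.33 to 5.07 elsewhere (interaction 3.02 ± 0.33, adjusted p = 0.00178). Taf4b, a TFIID subunit needed in oocytes, read 9.72, 9.58 and 9.32 in wild-type ovaries, 5.76 to 6.35 in Wv/Wv ovaries, 7.79, 8.96 and 8.15 in testes of wild type and 7.25 to 7.48 in those of Wv/Wv. Its interaction was 2.53 ± 0.42 (adjusted p = 0.0294, lost when any of 9 arrays was left out). Genes of the mature oocyte (Gdf9, Bmp15, Zp1, Zp2 and Zp3) had interactions between -0.35 and 0.27, none called. Taf7l, another TFIID-type subunit, fell in both gonad types, by 4.15 in ovaries and by 1.92 in testes (adjusted p = 7.85e-06 and 0.0152), and stayed higher in Wv/Wv ovaries (5.99 to 6.61) than in Wv/Wv testes (4.81 to 5.06).

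Ugt8a, the enzyme that makes galactosylceramide, had an interaction of 5.27 ± 0.39 (adjusted p = 0.000113), though a second, dimmer probe set gave 1.33 ± 0.42 and was not called (adjusted p = 0.752). It read 9.54, 9.97 and 9.74 in wild-type ovaries and 3.20 to 4.84 on the other 9 arrays. Cpeb1, an RNA-binding protein that controls polyadenylation in oocytes, had 2.61 ± 0.41, and Dmrtc2, Zfp541 and Atf7ip2 had 3.09 ± 0.45, 2.88 ± 0.35 and 2.93 ± 0.42. The remaining positive genes outside the lists were 1700013H16Rik (4.25), Tex16 (3.55), Fmr1nb (3.42), Tex30 (2.82), Hccs (2.66), Asf1b (2.37), Fmr1 (2.35), Gm715 (2.31), Taf7l2 (2.30), Ankrd49 (2.24), Pou4f1 (2.06), H2-Ab1 (2.00), Nup210 (1.79) and Tesmin (1.72), with Cited1 and Cenpw described next.

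Cited1, a transcriptional coactivator, and Gm715 were the 2 positive genes with a sex difference called in Wv/Wv and not in wild type. Cited1 read 7.75, 8.54 and 7.74 in wild-type ovaries, 5.01, 5.58 and 5.51 in Wv/Wv ovaries, 7.95, 8.55 and 8.50 in testes of wild type and 8.86, 8.46 and 8.45 in those of Wv/Wv. Only the Wv/Wv ovaries stood apart, below all 9 other arrays. Testes exceeded ovaries by 0.32 in wild type (adjusted p = 0.701) and by 3.22 in Wv/Wv (adjusted p = 5.95e-05), and the interaction, which is the difference between these, was 2.90 ± 0.41 (adjusted p = 0.0116). In Gm715 the testis-minus-ovary difference was 1.24 in Wv/Wv (adjusted p = 0.0251) and -1.07 in wild type (adjusted p = 0.0509), with the wild-type ovary arrays above all others. Cenpw, a centromere protein, had called differences of opposite sign in the 2 genotypes: testes were lower by -1.65 in wild type and higher by 1.22 in Wv/Wv (adjusted p = 0.00287 and 0.0157). A second probe set of nearly equal mean signal gave an interaction of 0.39 ± 0.39 and was not called.

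Of the 48 genes 10 lie on the X chromosome (20.8%), against 617 of the 18194 genes tested (3.39%). They are 1700013H16Rik, Tex16, Fmr1nb, Tex11, Cited1, Hccs, Fmr1, Gm715 and Taf7l among the positive genes and Nxf2 among the negative ones. Fmr1 and Fmr1nb are neighbours. Fmr1, an RNA-binding protein that many cells express, read 11.96, 11.57 and 12.06 in wild-type ovaries and 9.43 to 10.11 on the other 9 arrays, so the other 3 groups shared one level (interaction 2.35 ± 0.34, adjusted p = 0.0121). Its 2 other probe sets gave 1.10 and 1.43, and neither was called.

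The 5 negative genes include 3 of the nuclear piRNA and methylation pathway of the fetal testis. Piwil4, the nuclear PIWI protein that carries piRNAs to transposons, read 7.00, 9.22 and 8.05 in wild-type testes and 2.69 to 3.26 on the other 9 arrays. The wild-type testis arrays spread over more than 2 units, with array 1 lowest, and still lay far above all others. The interaction was -4.85 ± 0.60 (adjusted p = 0.00473), the testis change -5.15 and the ovary change -0.30. A second probe set of Piwil4 gave an interaction of -0.95 ± 0.32 and was not called. Tdrd9, a helicase that works with Piwil4, read 8.61, 10.00 and 9.37 in wild-type testes and 4.95 to 5.85 elsewhere (-3.75 ± 0.48, adjusted p = 0.00565). Dnmt3l, the cofactor of new DNA methylation, read 7.05, 8.36 and 7.10 against 4.42 to 5.19 (-3.15 ± 0.48, adjusted p = 0.0173, and 0.0739 at most with 1 array left out). Nxf2, an X-linked RNA export factor of germ cells, read 8.67, 10.15 and 9.05 against 5.29 to 5.93 (-3.48 ± 0.45, adjusted p = 0.00577). In these 4 genes all 3 wild-type testis arrays lay above all other 9, as in 0.456% of all genes.

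Rrad, a small GTPase of the Ras family, had another pattern. It read 6.55, 6.27 and 6.40 in wild-type ovaries, 8.03, 7.09 and 8.05 in Wv/Wv ovaries, 6.86, 8.23 and 7.16 in testes of wild type and 4.42, 4.77 and 5.06 in those of Wv/Wv. Wv/Wv testes were below all other arrays and Wv/Wv ovaries above the wild-type ovaries. The testis change of -2.66 was called (adjusted p = 0.0103), the ovary change of 1.32 was not (adjusted p = 0.184), and the interaction was -3.98 ± 0.52 (adjusted p = 0.00691). The sex difference was absent from the calls in wild type (1.01, adjusted p = 0.197) and was -2.97 in Wv/Wv (adjusted p = 0.000731).

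Among the 8 promoter windows of the 4 negative genes that have any, TCCCGC was present in 1 (Nxf2) and CACGTG in 3, those of Dnmt3l, Nxf2 and Tdrd9. The windows of Tdrd9 (chr12:111971309-111971608, plus strand) and Piwil4 (chr9:14740623-14740922, minus strand) are shown for comparison with the meiotic genes, with matches again in capitals.
Tdrd9: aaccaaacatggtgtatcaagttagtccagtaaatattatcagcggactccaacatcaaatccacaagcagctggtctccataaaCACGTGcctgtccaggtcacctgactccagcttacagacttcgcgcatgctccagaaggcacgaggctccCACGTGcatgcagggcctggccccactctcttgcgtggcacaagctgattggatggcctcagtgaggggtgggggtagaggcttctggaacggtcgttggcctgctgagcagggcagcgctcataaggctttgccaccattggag
Piwil4: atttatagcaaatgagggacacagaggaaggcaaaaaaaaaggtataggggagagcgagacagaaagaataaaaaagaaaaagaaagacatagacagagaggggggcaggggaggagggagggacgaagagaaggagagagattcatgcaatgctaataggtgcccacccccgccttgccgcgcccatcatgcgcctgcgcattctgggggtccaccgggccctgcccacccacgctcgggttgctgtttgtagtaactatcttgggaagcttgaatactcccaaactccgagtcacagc
Tdrd9 holds 2 matches to CACGTG and none to TCCCGC, and this window of Piwil4 holds neither.

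Across all 21 measured genes of the piRNA pathway and the male fetal germ cell, 3 were called negative (0.0275% of all genes) and none positive (0.236%). Their median was -0.09. Of the 21 genes 7 were called lower in Wv/Wv ovaries (0.874% of all genes) and 10 in Wv/Wv testes (0.187%). Mael, a piRNA pathway protein, read 10.07, 10.45 and 10.20 in wild-type ovaries and 8.41, 11.60 and 10.22 in wild-type testes, against 3.21 to 3.87 in all 6 Wv/Wv gonads. Its changes of -6.73 and -6.53 left an interaction of 0.20 ± 0.84 (adjusted p = 1.0). Piwil2, the cytoplasmic PIWI protein, changed by -3.07 in ovaries and -4.57 in testes (interaction -1.50 ± 0.69, adjusted p = 1.0). Morc1, needed for transposon silencing in male germ cells, had the testis pattern with a wider spread (interaction -4.46 ± 0.90, adjusted p = 0.0979).

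Lists of genes used by germ cells of both sexes held no call for the interaction. With 0.264% of all genes called, 0 calls in lists this short do not set them apart. Of 13 measured germ cell RNA regulators, 8 were called lower in Wv/Wv ovaries (0.874% of all genes) and 6 in Wv/Wv testes (0.187%). For the interaction limma called 0 of them, with a list median of 1.22 and 10 of the 13 above 0. Dazl had an interaction of 1.42 ± 0.63 and Ddx4 one of 1.53 ± 0.84 (adjusted p = 1.0 for both). Of 22 measured genes of pluripotency and primordial germ cells 0 were called, with a median of -0.09. The member farthest from 0 was Dppa4, a chromatin protein of early germ cells, which read 9.45, 11.37 and 10.03 in wild-type testes, 5.72, 8.02 and 5.59 in wild-type ovaries and 4.43 to 5.74 in Wv/Wv gonads. Its interaction was -3.70 ± 0.91 (adjusted p = 0.281), and without wild-type ovary array 2 it was -4.49 ± 0.71 (adjusted p = 0.0406).

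**Figure D3:**
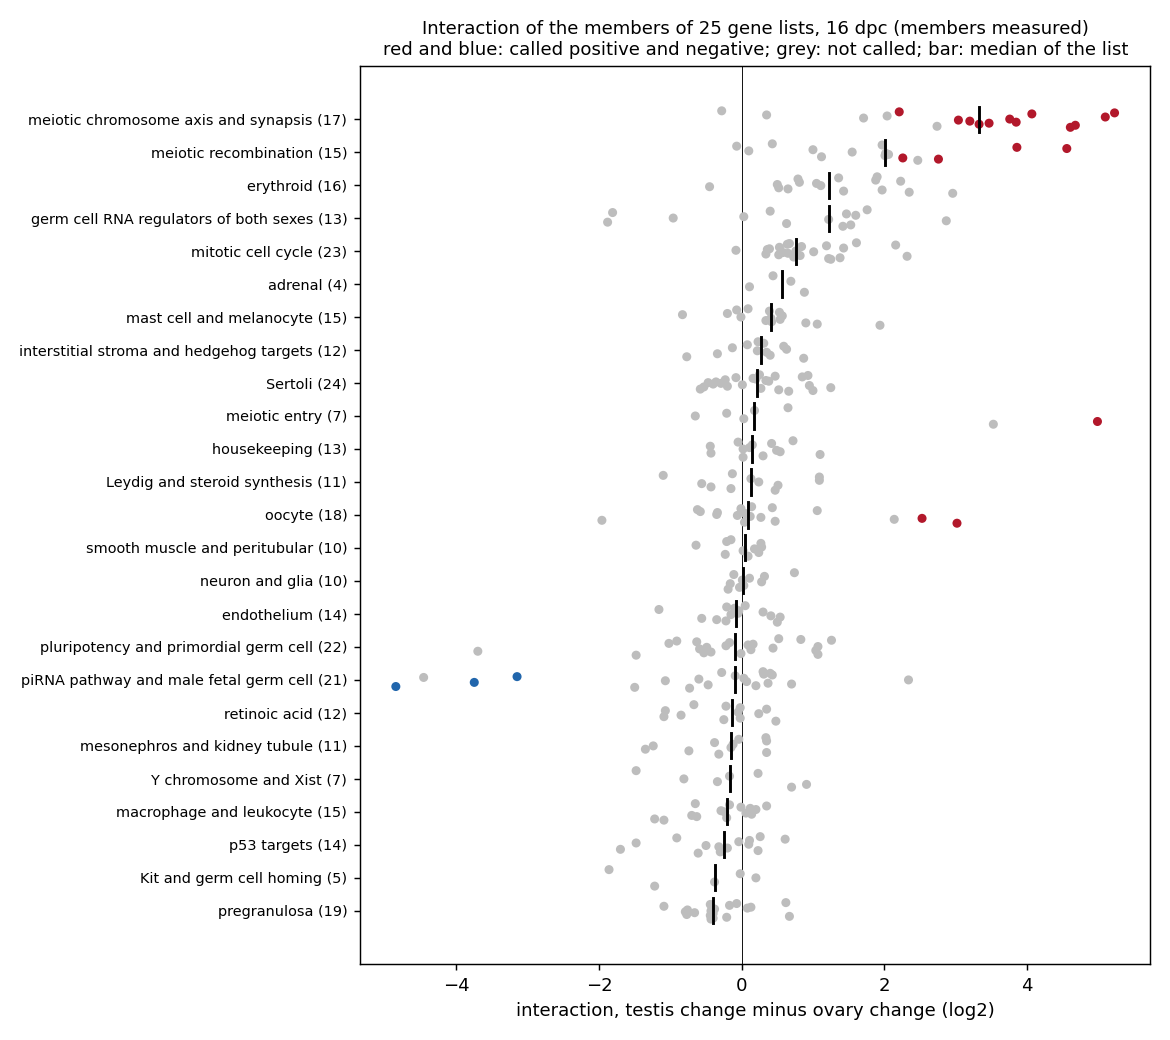
Interaction at 16 dpc (x, log2) of each measured member of 25 gene lists (y, number measured in brackets), in red and blue where called positive or negative, with a bar at the list median. Calls fall in 5 of the lists, those of meiotic axis and synapsis, recombination, meiotic entry, oocyte and piRNA genes.

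Somatic lists held no call for the interaction, and with 0.264% of all genes called this does not set lists this short apart. The 24 measured Sertoli genes had a median of 0.22, with 12 called higher in wild-type testes than ovaries (2.07% of all genes) and 14 in Wv/Wv (1.98%). The 19 measured pregranulosa genes had a median of -0.40, with 11 called lower in wild-type testes (1.95% of all genes) and 12 in Wv/Wv (1.67%). For Leydig and steroid synthesis genes the counts were 6 and 7 of 11 called higher in testes, with a median interaction of 0.13. Foxl2 (-0.43 ± 0.31), Fst (-0.40 ± 0.58), Sox9 (0.66 ± 0.69), Amh (1.00 ± 1.12) and Cyp17a1 (-0.15 ± 0.45) all missed the threshold, as did Kitl, the ligand of Kit (-0.38 ± 0.48). The intervals are wide for Amh, which read 9.81, 7.50 and 7.68 in testes of wild type and 10.87, 7.64 and 7.84 in those of Wv/Wv, the high reading in each group being the narrow-class array.

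Lists of blood and dividing cells also held no call, against 0.264% of all genes, which again does not set short lists apart. Of 16 measured erythroid genes 4 were called lower in Wv/Wv ovaries (0.874% of all genes), none in testes (0.187%) and 0 for the interaction, with a median of 1.23. Their mean log2 signal was 7.35 to 8.33 in wild-type ovaries, 6.10 to 6.24 in Wv/Wv ovaries, 6.26 to 7.18 in testes of wild type and 6.26 to 6.53 in those of Wv/Wv. Rhag, of the red cell membrane, had an interaction of 2.96 ± 0.71 (adjusted p = 0.258) and Klf1, the erythroid transcription factor, 2.35 ± 0.59 (adjusted p = 0.308). Mast cell and melanocyte genes, from lineages that also need Kit, had means of 5.51 to 5.90, 4.94 to 5.39, 4.89 to 5.92 and 5.01 to 5.34 in the same order, and 1 of 15 (Cma1) was called lower in Wv/Wv ovaries. The 23 measured mitotic genes had a median interaction of 0.76, with 22 of them above 0, against 9508 of the 18194 genes tested, and limma called 0. Without wild-type testis array 1, whose list mean of 8.85 lay below the 10.59 and 10.57 of arrays 2 and 3, that median was 0.27. The part of these cells in the interaction calls was not tested.

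Leaving out wild-type testis array 1 kept all 48 calls and raised their number to 72 (0.396%), 13 of them negative (0.0715%). It also tilted the estimates by signal level, with medians of 0.29, -0.22 and -0.46 over equal groups of genes of low, middle and high mean signal, against 0.08, -0.04 and 0.01 with the array. With array class as a term all 48 were kept among 337 calls (1.85%), 303 positive and 34 negative. That fit tilted the other way, with medians of -0.19, 0.12 and 0.51 over the low, middle and high groups. With both changes 183 genes were called (1.01%), 165 positive and 18 negative, the medians of these groups were -0.06, -0.05 and -0.04, and 46 of the 48 were kept, Syce3 (adjusted p = 0.06) and Mei1 (adjusted p = 0.056) being lost. In that fit the piRNA list had 5 negative calls (0.0989% of all genes), Gtsf1 (-2.37) and Morc1 joining Piwil4, Tdrd9 and Dnmt3l. The germ cell RNA regulators had 2 positive ones (0.907% of all genes), Elavl2 (3.96 ± 0.61, limma adjusted p = 0.00957) and Tdrkh. Rhag was called as well (3.43 ± 0.59, adjusted p = 0.0179), and so were Bub1 and Mcm5 of the mitotic list. The 48 genes had a median estimate of 2.82 for the positive and -3.80 for the negative ones, against 3.02 and -3.75 without these changes.

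**Figure D4:**
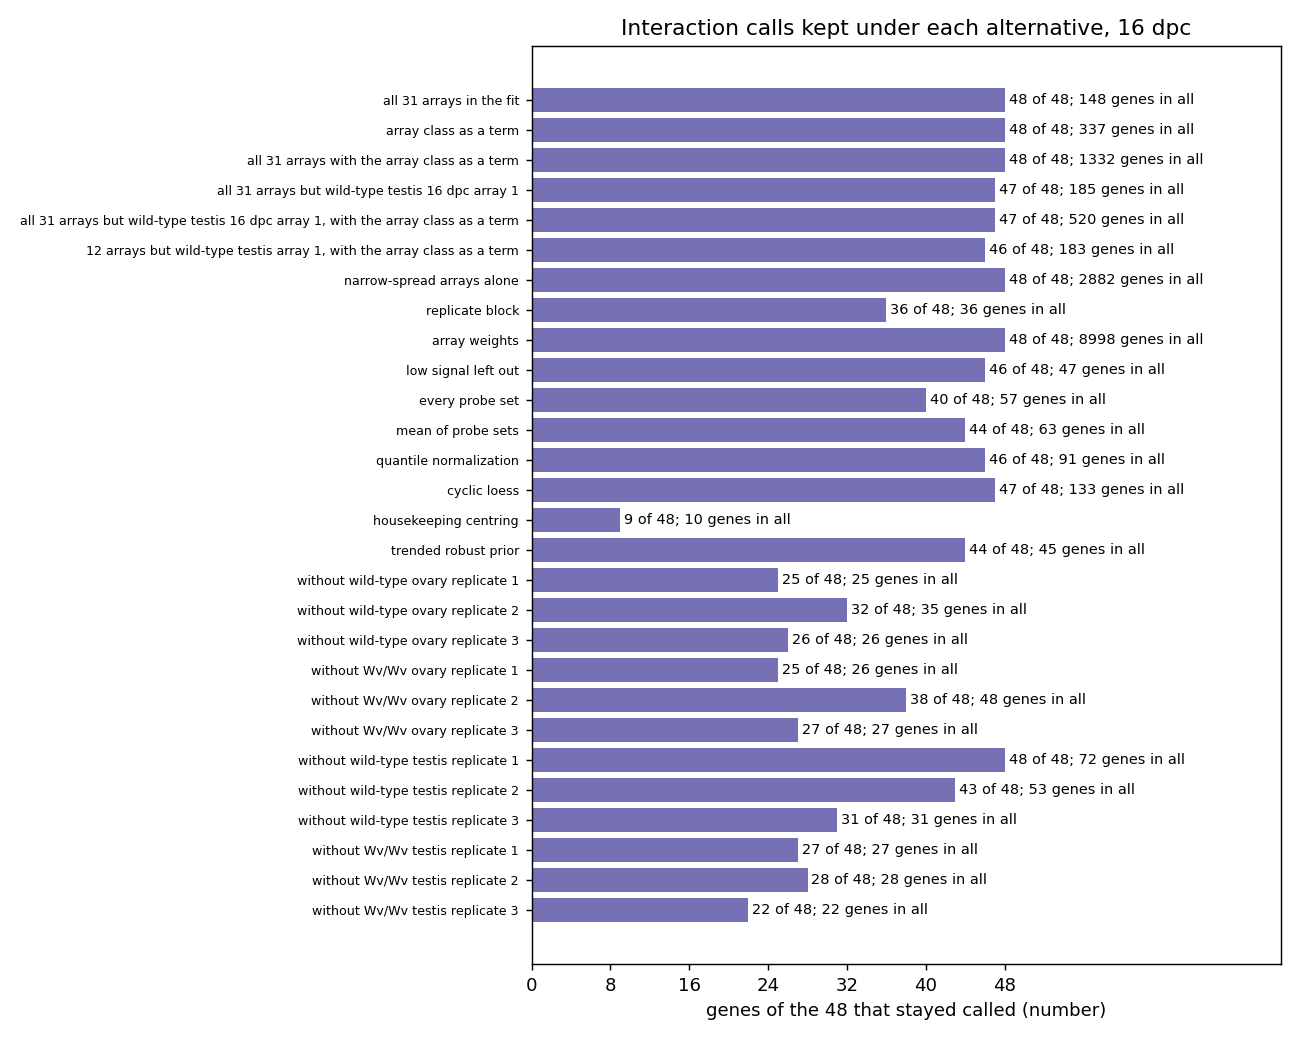
Bars give how many of the 48 called genes stayed called under each alternative (x, number of genes), with the total called beside each bar. Leaving out single arrays keeps 22 to 48 of them, and centring on housekeeping genes keeps 9.

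Leaving out each of the 12 arrays in turn gave 22 calls (without Wv/Wv testis array 3) to 72 (without wild-type testis array 1), and every one of the 48 kept its sign each time. Fewer than 32 genes were called without wild-type ovary array 1 (25) or 3 (26), Wv/Wv ovary array 1 (26) or 3 (27), wild-type testis array 3 (31) or Wv/Wv testis array 1 (27) or 2 (28). The call held in all 12 fits for 21 genes, 17 positive and 4 negative: Ugt8a, Terb1, Smc1b, Meioc, Sycp1, Spdya, Meiob, 1700013H16Rik, Majin, M1ap, Tex16, Fmr1nb, Figla, Cited1, Zfp541, Cenpw and Dmc1, and Nxf2, Tdrd9, Rrad and Piwil4. For 19 genes it held in fewer than 6 of them: Syce3, Hormad1, Syce1, Tex12, Hsf2bp, Tex30, Cpeb1, Taf4b, Asf1b, Gm715, Taf7l2, Mei1, Ankrd49, Taf7l, Terb2, Pou4f1, Nup210, Tesmin and Dnmt3l.

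Of the 48 genes 33 have 1 probe set. The other 15 have 21 further probe sets, all with the same sign of interaction, and 4 of them were called. Here and above, further probe sets were judged in a fit of all 45101 probe sets. In that fit 40 of the 48 probe sets used stayed called. A second probe set of Terb1 gave 5.43 ± 0.41 and one of Dmc1 gave 4.00 ± 0.37. Others were weaker than the probe set used and were not called: 1.33 ± 0.42 for Ugt8a (5.27 used), 1.73 ± 0.42 for Spdya (4.60 used) and 0.93 ± 0.46 for Hsf2bp (3.18 used). A second one of Piwil4 gave -0.95 ± 0.32 and was not called (mean signal 3.46, against 3.69 for the one used). A second one of Cenpw gave 0.39 ± 0.39 and was not called (mean signal 7.35, against 7.42 for the one used). In 32 of the 43 positive genes all 3 Wv/Wv ovary arrays read below 6.28, the 40th percentile of all values, and in all 5 negative genes the Wv/Wv testis arrays did, so their changes may be larger than the signals can show. In the opposite gonad type the wild-type signal was often as low. All 3 wild-type testis arrays read below 6.28 in 24 of the 43 positive genes. All 3 wild-type ovary arrays did in 4 of the 5 negative genes. There a change near 0 may mean only that little signal could be lost.

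The same interaction at 14 dpc rests on 11 other arrays. All 43 positive genes were positive there too, with a median of 2.16, and 3 were called (Meioc at 5.17 ± 0.45, 1700013H16Rik at 4.67 ± 0.36 and M1ap at 3.60 ± 0.49), against 0.066% of all genes called positive and 0.0934% called in either direction. With the class term 28 of the 43 were called (1.21% of all genes called positive, 1.4% in either direction). The negative genes differed: 4 of 5 had the same sign but the median was -0.26 and none was called. Piwil4 had -0.26, Tdrd9 0.39, Dnmt3l -0.03, Nxf2 -0.55 and Rrad -0.82 at 14 dpc.

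The difference of the interaction between 16 and 14 dpc was tested in one fit of 23 arrays. Without the class term limma called 0 genes, with 260 at an unadjusted p below 0.05. With the class term it called 6 (0.033%, 0.022% negative and 0.011% positive): Piwil4 (-4.34 ± 0.74), Tdrd9 (-3.90 ± 0.65), Dnmt3l (-3.15 ± 0.55) and Rrad (-2.90 ± 0.51), which were more negative at 16 dpc, and Nodal (2.43 ± 0.37) and Lhx1 (2.15 ± 0.37). Fitted without the class term at each age, Nodal had -2.33 at 14 dpc (adjusted p = 0.0185) and 0.31 at 16 dpc, and Lhx1 had -2.0 (adjusted p = 0.0545) and 0.35. For the differences themselves adjusted p was 0.0279 for Nodal and 0.0341 for the others. Of the 43 positive genes 38 lay further from 0 at 16 dpc, the median difference over all 43 was 1.05 without the class term, and none of these differences was called. The 43 genes were chosen by their 16 dpc values, which favours larger estimates at that age. This count and median therefore do not measure a change with age.

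**Figure D5:**
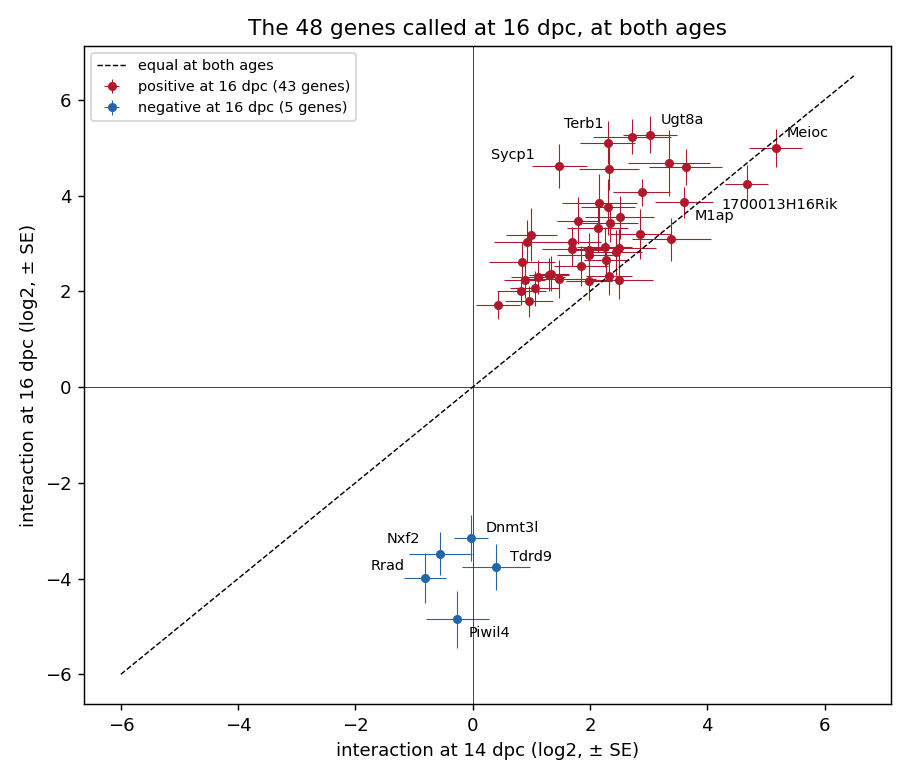
Interaction of the 48 genes at 14 dpc (x, log2) and 16 dpc (y, log2), with bars of 1 SE and a dashed line of equal values. All positive genes are right of 0 and most lie above the line, while the 5 negative genes lie near 0 at 14 dpc and between -4.85 and -3.15 at 16 dpc. All 48 were chosen by their 16 dpc values, which favours larger values at that age.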

How the data were processed

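RNA of whole gonads was hybridised to Affymetrix 3′ arrays, 1 sample per array, from 50 ng of total RNA. The authors deposited log2 signals of 45101 probe sets, which, per the submitters' processing notes, RMA produced; its version is not given in the sources used here. RMA evens out arrays, so an overall shift of RNA is not visible. The platform annotation gave 34958 probe sets 1 symbol, 932 several and did not list 9211. The brightest probe set over all 31 arrays stood for each gene, which left 18194.

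Group means of the 12 arrays were fitted with limma 3.58.1 in R 4.3.3 (lmFit, eBayes, 8 residual degrees of freedom, prior 3.667), with Benjamini-Hochberg adjustment over all genes and calls below 0.05. Array class divides at an SD of 2.25 over probe sets. The fit was checked on simulated data. Tables and figures used Python 3.11.15, pandas 2.3.3, numpy 2.4.6 and matplotlib 3.10.9. Alternatives were all 31 arrays, array class, weights, probe set choice, other normalizations, a low-signal filter (6.28), a replicate block and each array left out.

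The members and the 25 gene lists were chosen with earlier results of these data known. Named genes were the 10 most positive and 10 most negative called, up to 4 called members of each list (the farthest from 0 in a list with no call), and a set of fixed markers. All other genes named, the promoter windows, the 14 dpc comparison and the difference between ages were chosen after their values were seen. List members without a probe set of 1 symbol, Nanos2 and Insl3 among them, were not analysed here.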

Additional observations from a re-analysis of the deposited data

Results flagged for a closer look

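The genotype change differed between testes and ovaries at 16 dpc for 48 genes by the limma interaction test. The positive estimates, lower in Wv/Wv ovaries, were, on the log2 scale, Ugt8a 5.27, Terb1 5.23, Smc1b 5.10, Meioc 4.99, Sycp3 4.68, Sycp1 4.61, Spdya 4.60, Meiob 4.56, 1700013H16Rik 4.25, Majin 4.07, M1ap 3.86, Syce3 3.85, Hormad1 3.76, Tex16 3.55, Syce2 3.47, Fmr1nb 3.42, Syce1 3.33, Tex12 3.20, Hsf2bp 3.18, Dmrtc2 3.09, Tex11 3.04, Figla 3.02, Atf7ip2 2.93, Cited1 2.90, Zfp541 2.88, Cenpw 2.87, Tex30 2.82, Dmc1 2.76, Hccs 2.66, Cpeb1 2.61, Taf4b 2.53, Asf1b 2.37, Fmr1 2.35, Gm715 2.31, Taf7l2 2.30, Mei1 2.26, Ankrd49 2.24, Taf7l 2.23, Terb2 2.21, Pou4f1 2.06, H2-Ab1 2.00, Nup210 1.79, Tesmin 1.72. The negative estimates, lower in Wv/Wv testes, were Dnmt3l -3.15, Nxf2 -3.48, Tdrd9 -3.75, Rrad -3.98, Piwil4 -4.85.

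With array class as a term the interaction itself differed between 16 and 14 dpc for 6 genes: Piwil4 by -4.34, Tdrd9 by -3.90, Dnmt3l by -3.15, Rrad by -2.90, Nodal by 2.43 and Lhx1 by 2.15. Nodal, a signal of the early male germ cell, and Lhx1 had values of -2.38 and -2.05 at 14 dpc in the fit of that age with the class term. Without the class term the same limma test called 0 genes, with 260 at an unadjusted p below 0.05.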

How the results depend on the processing

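Against 48 calls, the fit over all 31 arrays gave 148, that with the class term 1332, that without wild-type testis array 1 185 and that with both changes 520. The 12 arrays gave 337 with the class term and 183 with that term and without wild-type testis array 1. Narrow-spread arrays alone gave 2882, on 2 residual degrees of freedom, quantile normalization 91 and cyclic loess 133. Array weights gave 8998 (3019 positive, 5979 negative), and their estimation did not converge. Centring on housekeeping genes gave 10 (6 positive, 4 negative), kept 9 of the 48 and shifted the median of all genes to -0.12. Leaving out 1 array gave 22 to 72. Every one of the 48 kept its sign in every alternative that tested it, and over all alternatives their calls were kept 1064 times and lost 279 times. Genes named without a call passed 60 times and missed 888 times.

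Counts of the simple contrasts ranged from 111 to 10379 for genotype in ovaries (176 reported), 20 to 5488 in testes (34), 350 to 10961 for sex in wild type (731) and 386 to 4654 in Wv/Wv (663). The 48 genes passed the genotype contrast of their gonad type in at least 46 of 48 cases under every alternative. With the replicate number as a replicate block 36 genes were called, all among the 48, and Syce3, Tex12, Hsf2bp, Gm715, Taf7l2, Mei1, Ankrd49, Taf7l, Terb2, Pou4f1, Nup210 and Tesmin were lost. Same-numbered wild-type and Wv/Wv testis arrays deviated together (r = 0.72, 0.602 and 0.657), and the block gave 36 calls against 34 for genotype in testes. In both testis groups array 1 is narrow and arrays 2 and 3 are wide, so number and class cannot be told apart there. Over the other pairs of groups r ran from -0.737 to 0.701, so the numbers were not taken to pair all 4 groups.

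Arrays of 3 per group limit the precision, and class and group cannot be fully told apart, since no wild-type ovary array is of the wide class.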
